A study of Mus musculus with 4 samples.

Results

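The Gadd45 family was followed here as 4 genes of the mouse dentate gyrus, taken by symbol out of 18010 genes measured: Gadd45a, Gadd45b, Gadd45g and Gadd45gip1. The first 3 encode the small acidic Gadd45 proteins. Gadd45gip1 encodes no Gadd45 protein. Its product binds them, which gave the gene its name, and it works as a part of the large subunit of the mitochondrial ribosome. Of the 4 genes, Gadd45b alone passed the test after electroconvulsive stimulation, with 4.56-fold more RNA than after sham handling. The differences of the other genes were between -0.03 and 0.37 on the log2 scale, and none of those passed.

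Gadd45 proteins are nuclear and cytoplasmic adaptors that cells make quickly under stress. They bind and activate the MAP kinase kinase kinase Map3k4, which feeds the p38 and JNK kinases, and they bind Pcna, the cyclin-dependent kinase Cdk1 and the cell cycle inhibitor Cdkn1a in growth arrest and repair. The 3 genes answer to different signals: Gadd45a is a classical p53 target, Gadd45b responds to NF-kB and TGF-beta, and Gadd45g to cytokines. In neurons Gadd45b is an activity-induced gene, and the family has been linked to active DNA demethylation through cytosine deamination or oxidation and base excision repair.

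RNA was measured on 4 exon arrays, 2 per group, from wild-type C57/Black6 males aged 8 weeks that were bought from Charles River and kept in house for 2 weeks. The dentate gyrus was microdissected from the whole hippocampus 4 h after a single electroconvulsive stimulus (ECS; 18 mA for 1.0 s, in 0.3 ms pulses at 100 Hz) or after sham handling without current. Arrays of 1 group are labelled as biological replicates, with no word on how many animals gave the RNA of each, so the p-values measure the spread between these arrays, which may hold pooled animals. The tissue was dissected and not sorted, and in such bulk RNA fewer cells of a type and less RNA per cell cannot be told apart. The arrays are called sham 1, sham 2, ECS 1 and ECS 2.

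The start regions of the 3 Gadd45 genes are shown because the genes belong to 1 family and Gadd45b alone of them passed the test. Each window runs from 250 bases before to 50 bases after the start of the gene (RefSeq, GRCm38.p6), written along the gene's strand. It lies at chr6:67037358-67037657 on the minus strand for Gadd45a, at chr10:80929841-80930140 on the plus strand for Gadd45b and at chr13:51846425-51846724 on the plus strand for Gadd45g. Capitals mark matches to the E-box CACGTG, the CCAAT box, the TATA box TATAAA and the octamer ATGCAAAT, each searched on both strands.
Gadd45a: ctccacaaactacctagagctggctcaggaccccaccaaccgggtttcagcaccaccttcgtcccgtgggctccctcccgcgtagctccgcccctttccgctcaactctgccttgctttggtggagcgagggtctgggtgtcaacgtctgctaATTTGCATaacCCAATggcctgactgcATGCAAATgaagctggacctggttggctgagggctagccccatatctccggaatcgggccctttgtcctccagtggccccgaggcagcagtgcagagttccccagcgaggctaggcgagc
Gadd45b: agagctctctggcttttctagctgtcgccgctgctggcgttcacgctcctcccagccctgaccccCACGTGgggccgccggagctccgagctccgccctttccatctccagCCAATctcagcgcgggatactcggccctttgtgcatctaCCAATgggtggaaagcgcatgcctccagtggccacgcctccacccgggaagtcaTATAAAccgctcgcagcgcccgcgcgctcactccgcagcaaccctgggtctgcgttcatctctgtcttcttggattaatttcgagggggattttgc
Gadd45g: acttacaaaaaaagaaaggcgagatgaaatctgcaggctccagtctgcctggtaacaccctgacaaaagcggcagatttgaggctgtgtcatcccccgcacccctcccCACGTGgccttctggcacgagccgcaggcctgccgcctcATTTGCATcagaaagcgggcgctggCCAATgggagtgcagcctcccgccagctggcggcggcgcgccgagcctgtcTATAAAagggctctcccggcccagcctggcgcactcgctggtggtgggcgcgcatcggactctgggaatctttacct

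The Gadd45b and Gadd45g windows each held 1 E-box and 1 TATA box, and the Gadd45a window held neither. The E-box stood at -185 to -180 from the start in Gadd45b and at -142 to -137 in Gadd45g. Of 32851 windows of this length across the genome, 7.15% held CACGTG and 13.6% TATAAA. The CCAAT box, found in 37.4% of all windows, was matched once in Gadd45a, 2 times in Gadd45b and once in Gadd45g. The octamer, found in 1.74% of windows, was matched 2 times in Gadd45a, once in Gadd45g and not in Gadd45b. All 3 windows held more CpG dinucleotides than the median window, with 14 in Gadd45a, 24 in Gadd45b and 21 in Gadd45g against 7. Fewer CpG than in these genes were found in 63.7%, 80.0% and 75.2% of all windows, so such counts are common. The GC content of the 3 windows was 61.0%, 62.0% and 62.3% against a median of 52.7%. No match was found in these 3 windows to the cAMP response element TGACGTCA (1.79% of windows), to its core TGACG, which lies within the full element (20.8%), to the AP-1 site TGANTCA (7.81%), to the NF-kB motif (8.46%) or to the CArG box bound by serum response factor (1.63%). A match is a run of letters and no measurement of binding. No Gadd45gip1 window was used here.

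Gadd45b was the member past the threshold. Its log2 level was 6.68 on sham 1, 6.76 on sham 2, 8.86 on ECS 1 and 8.96 on ECS 2. The lower ECS array lay 2.10 above the higher sham array, a far wider gap than that between arrays of a group. The mean went from 6.72 ± 0.06 to 8.91 ± 0.07 (SD, n = 2 per group), a difference of 2.19 ± 0.09 (SE; 95% interval 1.95 to 2.43). That is 4.56-fold (3.86 to 5.38). In limma across all genes the Benjamini-Hochberg adjusted p was 0.0125, and the unadjusted p of 1.74e-06 was the lowest of all 18010 genes. By size the increase ranked 3. In the same fit 0.500% of genes were called higher after ECS and 0.194% lower. Leaving out sham 2, ECS 1 or ECS 2 gave a difference of 2.14 to 2.24 with adjusted p-values of 0.0502 to 0.0567, just outside the threshold of 0.05, and without sham 1 the adjusted p was 0.0490.

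Gadd45g was the next. Its log2 level was 7.43 and 7.58 on the sham arrays and 7.96 and 7.80 on the ECS arrays, so both ECS arrays lay above both sham arrays, with a gap of 0.21 between the groups. The mean was 7.51 ± 0.11 after sham and 7.88 ± 0.12 after ECS (SD, n = 2 per group). The difference was 0.37 ± 0.11 (SE; 95% interval 0.09 to 0.65), or 1.29-fold (1.06 to 1.57), with an adjusted p of 0.208 in limma. Both ECS arrays lay above both sham arrays in 18.7% of all genes, and 95.7% of genes had a smaller difference than Gadd45g.

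For Gadd45a the groups overlapped. Its log2 level was 6.62 on sham 1, 6.90 on sham 2, 7.17 on ECS 1 and 6.81 on ECS 2, so the second ECS array lay between the sham arrays. The difference was 0.23 ± 0.17 (SE; 95% interval -0.19 to 0.65), 1.17-fold, with an adjusted p of 0.541 in limma. Without ECS 1 it was 0.04. The interval holds no change as well as a change as large as that of Gadd45g.

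Gadd45gip1 stood at 7.49 and 7.41 after sham and at 7.38 and 7.47 after ECS. The groups overlapped and the difference was -0.03 ± 0.09 (SE; 95% interval -0.27 to 0.21; adjusted p 0.905 in limma). The median difference over all genes was -0.04, so Gadd45gip1 lay in the middle of the distribution, with 51.4% of genes below it. Its sign turned under several settings, for example to 0.04 after median centring.

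**Figure D1:**
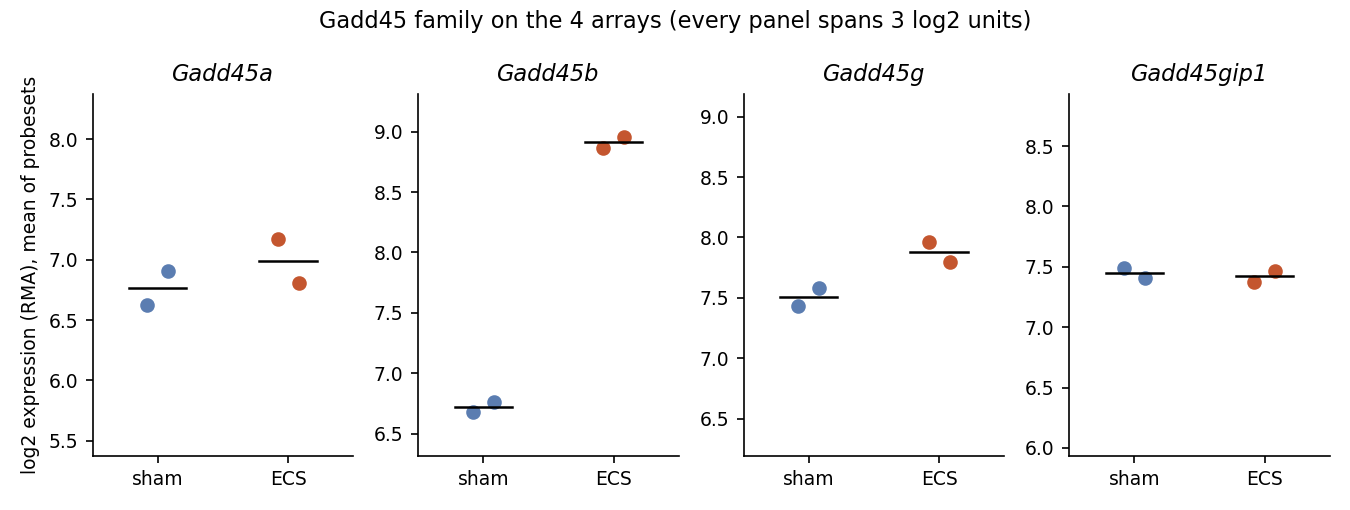
Deposited log2 expression values of Gadd45a, Gadd45b, Gadd45g and Gadd45gip1 on each of the 4 arrays, with points for arrays, short lines for the mean of each group and every panel spanning 3 log2 units. Gadd45b stands at 6.68 and 6.76 on the sham arrays and at 8.86 and 8.96 on the ECS arrays, the ECS arrays of Gadd45g lie above its sham arrays by 0.21, and the groups of Gadd45a and Gadd45gip1 overlap.

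**Figure D2:**
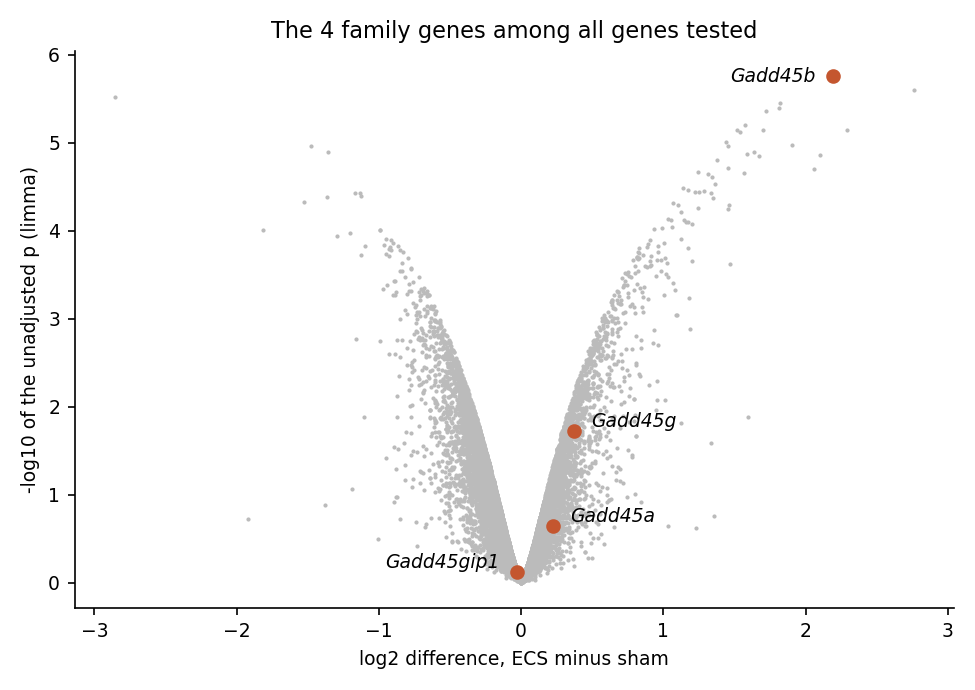
Log2 difference, ECS minus sham, on the horizontal axis against -log10 of the unadjusted limma p on the vertical axis, with 1 point for each of 18010 genes and the 4 family members marked. Gadd45b is the highest point of the plot, at a difference of 2.19, and Gadd45g (0.37), Gadd45a (0.23) and Gadd45gip1 (-0.03) lie among the mass of genes.

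Differences between members were read within each array, which takes out any shift of a whole array, and compared between the groups over 6 pairs with an exact permutation test. With 2 arrays against 2 the smallest two-sided p is 0.333, so no pair could reach 0.05. The difference of Gadd45b exceeded that of Gadd45g by 1.82 ± 0.13 (SE, n = 2 per group; exact p 0.333, adjusted over the 6 pairs 0.5) and that of Gadd45gip1 by 2.22 ± 0.08 (exact p 0.333, adjusted 0.5). For Gadd45a minus Gadd45b the value was -1.96 ± 0.25, with the same exact p. For Gadd45g minus Gadd45gip1 it was 0.40 ± 0.17 (exact p 0.333, adjusted 0.5). In these 4 pairs the ECS and sham arrays did not overlap. Gadd45b is part of all of them but the last, so they are not separate results. Among single genes, both ECS arrays lay above both sham arrays in 18.7% and below in 30.7%. The share over all pairs of genes was not computed. The arrays overlapped for Gadd45a minus Gadd45gip1, at 0.26 ± 0.29 (exact p 0.667, adjusted 0.667). For Gadd45a minus Gadd45g it was -0.14 ± 0.12 (exact p 0.667, adjusted 0.667), within the spread of the arrays.

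Each gene value is a mean over probesets, the small groups of probes that each read a short stretch of the transcript, and the probesets show how evenly a gene's difference was spread along it. The mapping deposited with the table places Gadd45b at 80392836 to 80394949 on the plus strand of chromosome 10, with 4 exons, in a genome build not given in the sources used here. Its 5 probesets were all higher after ECS, with both ECS arrays above both sham arrays in each, a pattern seen in 17.6% of the 229712 probesets listed for a transcript. Probeset 4346748 read 8.04 and 8.19 after sham and 10.5 and 10.5 after ECS, a difference of 2.40 ± 0.14 (SE). Probeset 4802707, the dimmest of the 5, read 4.25 and 4.70 after sham and 6.74 and 7.26 after ECS, a difference of 2.52 ± 0.27. Probesets 4411269 and 5144351 differed by 2.34 ± 0.19 and 2.21 ± 0.19. Probeset 4906773 gave the smallest difference, 1.47 ± 0.15, from 7.96 and 7.89 after sham to 9.33 and 9.47 after ECS.

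The 95% interval of probeset 4906773 (1.08 to 1.87) lay below that of probeset 4346748 (2.01 to 2.79) and overlapped those of the others. As folds the 5 probesets ran from 2.78 to 5.75. The position of each probeset along the transcript was not used here, and a difference between probesets can lie in the probes as well as in the transcript. In limma over single probesets, 0% of the 229712 passed an adjusted p of 0.05, the smallest adjusted p was 0.389, and each of the 5 Gadd45b probesets had that value. At an unadjusted p under 0.05 there were 23377 probesets, 4.25% of all being higher after ECS, and the 5 Gadd45b probesets had unadjusted p-values of 4.53e-05 to 0.000498.

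Gadd45g, placed by the mapping on the plus strand of chromosome 13 at 51942044 to 51943841 with 4 exons, has 4 probesets. All 4 had positive differences, from 0.26 to 0.54, and in 2 of them both ECS arrays lay above both sham arrays. That pattern was seen in 17.6% of all probesets listed for a transcript. Probesets of 1 gene share its RNA and are not replicates. The largest was in probeset 4348997, which read 7.92 and 7.99 after sham and 8.60 and 8.38 after ECS (0.54 ± 0.16, SE). It was the one Gadd45g probeset with an unadjusted p under 0.05 in limma (0.0244).

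Gadd45a, on the minus strand of chromosome 6 at 66985090 to 66987401 with 4 exons, has 3 probesets. Their differences were positive, from 0.16 to 0.30, with SEs of 0.19 to 0.56. Probeset 4981778 was the least steady, with 5.22 and 6.07 after sham and 6.55 and 5.19 after ECS. In probeset 5487072 alone of the 3 the groups did not overlap, at 7.50 and 7.79 after sham and 8.08 and 7.80 after ECS. Both ECS arrays lay above both sham arrays in 17.6% of all probesets listed for a transcript.

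**Figure D3:**
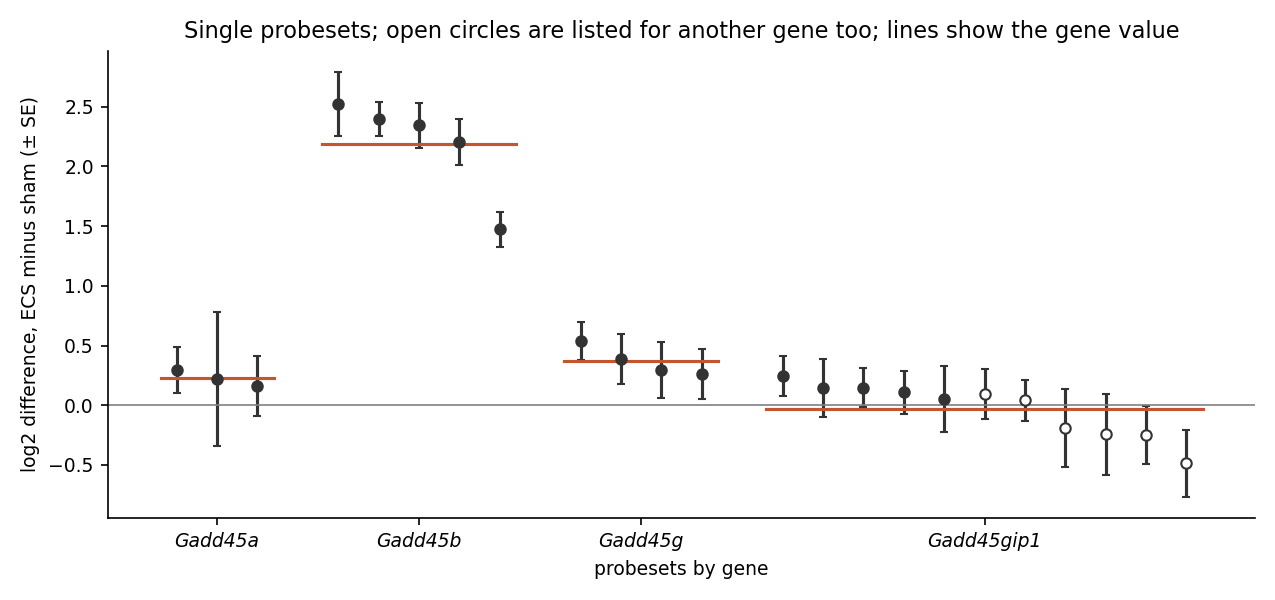
Log2 difference, ECS minus sham, of every probeset of the 4 genes, with bars of ± SE from limma, lines at each gene's own value and open circles for the probesets also listed for another gene. The 5 probesets of Gadd45b lie between 1.47 and 2.52, those of Gadd45g between 0.26 and 0.54 and those of Gadd45a between 0.16 and 0.30, and the 11 of Gadd45gip1 lie on both sides of 0.

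Gadd45gip1 has 11 probesets and its value joins 2 sets whose mean differences had opposite signs. The mapping places it on the plus strand of chromosome 8 at 87356181 to 87359381, with 2 exons. Of the 11 probesets, 6 are also listed for another gene, and which gene's RNA these 6 read was not determined.

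The 5 probesets listed for Gadd45gip1 alone had positive differences throughout, from 0.05 to 0.25. Their mean was 7.64 on sham 1, 7.68 on sham 2, 7.76 on ECS 1 and 7.84 on ECS 2, so the ECS arrays were the higher ones. Fitted as the gene's value, these 5 gave a difference of 0.14 ± 0.09 (SE) with an adjusted p of 0.480 in limma. The 6 shared probesets averaged 7.37 and 7.19 after sham and 7.06 and 7.15 after ECS, a difference of -0.17, and 4 of them were negative.

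The near-zero value of Gadd45gip1 is a mean over probesets with differences of both signs. None of the 11 probesets had an unadjusted p under 0.05 in limma. The lowest was 0.149, and the SEs ran from 0.16 to 0.34. No single probeset was thus told apart from no change. Whether the shared probesets differed from those listed for Gadd45gip1 alone was not tested. The median of the 11 probeset differences was 0.05. The averages over each set of probesets were computed after the values were seen.

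The partners and regulators of the family were read from 9 lists, each given by its counts beside the share of all genes called (0.500% higher, 0.194% lower) and the median of all genes (-0.04). A gene was called at an adjusted p under 0.05. The first list holds the MAP kinase partners, Map3k4 and the kinases below it. None of its 12 genes was called, and its median difference was 0.01. The highest was Map2k3, a kinase that activates p38, at 6.18 and 6.28 after sham and 6.69 and 6.55 after ECS (0.39 ± 0.10, SE; adjusted p 0.173 in limma). The lowest was Map3k4, the kinase that Gadd45 proteins activate, at 9.13 and 9.18 after sham and 8.76 and 8.80 after ECS (-0.38 ± 0.09; adjusted p 0.147), and it passed with trend and robust eBayes (adjusted p 0.0417).

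Among the 9 cell cycle and repair partners none was called, and the median difference was 0.08. Cdkn1a, the cell cycle inhibitor p21, had the largest difference, at 6.93 and 6.67 after sham and 7.70 and 8.06 after ECS. Its groups did not overlap. The difference was 1.09 ± 0.16 (SE), or 2.12-fold, with an adjusted p of 0.0740 in limma. Cdkn1a passed without the dimmest 25% of genes (adjusted p 0.0298), with trend and robust eBayes (0.0138) and with crossed replicate numbers as a block (0.0327). These settings called 242, 365 and 106 genes higher in all, against 90 in the main fit. Cdkn1a did not pass with a block on the labels' replicate numbers (0.160) or the median over probesets (0.228). With 1 array left out its difference was 0.91 to 1.26. Cdk1, the mitotic kinase that Gadd45 proteins inhibit, was lowest at -0.13 ± 0.16, and this became 0.08 without ECS 1.

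The p53 target list, which also holds Cdkn1a, had no called gene among 24 and a median of -0.03. Its lowest member was Rrm2b, a subunit of ribonucleotide reductase, at -0.41 ± 0.11 (SE; adjusted p 0.174 in limma), and 13 of the 24 differences were negative. The median over all genes was negative too, at -0.04.

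Of the 17 genes of DNA demethylation and base excision repair, 1 was called and the median was -0.02. The called gene was Tet3, a dioxygenase that oxidises methylcytosine. It stood at 7.55 and 7.63 after sham and at 8.41 and 8.48 after ECS, so the groups were clearly apart. The difference was 0.86 ± 0.09 (SE), or 1.81-fold, with an adjusted p of 0.0397 in limma. The lowest was Apobec1, a cytidine deaminase, at -0.35 ± 0.13 (adjusted p 0.266).

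Both genes whose promoters have been reported as demethylation targets of Gadd45b in the dentate gyrus missed the threshold in the main comparison. The values are RNA levels of whole genes, and methylation was not measured. Bdnf, which encodes a neurotrophin, stood at 7.63 and 7.96 after sham and at 8.64 and 8.57 after ECS. The difference was 0.81 ± 0.14 (SE), or 1.75-fold, with an adjusted p of 0.0905 in limma, and the groups did not overlap. Bdnf passed without the dimmest 25% of genes (adjusted p 0.0390) and with trend and robust eBayes (0.0172). It did not pass with a block on the labels' replicate numbers (0.186) or the median over probesets (0.177). Its 5 probesets form 1 row of the table, so its alternative first exons were not told apart. Fgf1, a fibroblast growth factor, stood at 7.15 and 7.23 after sham and at 7.16 and 7.10 after ECS (-0.06 ± 0.09; adjusted p 0.772), and its sign turned after quantile normalization and after median centring, to 0.01 in both. The Fgf1 probesets also form 1 row, so transcripts from its different promoters were not told apart. Of the 6 Fgf1 probesets, 3 are also listed for another gene. Without those the difference was -0.15 (adjusted p 0.650 in limma).

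NF-kB and TGF-beta, both known to raise Gadd45b, each had 1 called gene in the list for that pathway. Of 25 NF-kB factors and targets, 1 was called and the median was 0.03. It was Rel, an NF-kB subunit, at 6.57 and 6.51 after sham and 7.73 and 7.59 after ECS (1.12 ± 0.10, SE; 2.18-fold; adjusted p 0.0242 in limma). The lowest was Birc2, an inhibitor of apoptosis, at -0.25 ± 0.09 (adjusted p 0.252). Of 9 TGF-beta mediators, 1 was called and the median was 0.14. It was Smad7, which inhibits TGF-beta signalling, at 7.27 and 7.11 after sham and 8.16 and 8.15 after ECS (0.96 ± 0.10; 1.95-fold; adjusted p 0.0375). The receptor Tgfbr1 was lowest at -0.10 ± 0.16, and turned positive without sham 2 (0.06) or without ECS 2 (0.05).

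The growth arrest and integrated stress response list had 13 measured genes of 15, without Cebpb and Cebpd. Of these 1 was called and the median was 0.09. Atf3, a stress-induced transcription factor, stood at 4.97 and 5.30 after sham and 7.22 and 7.25 after ECS (2.10 ± 0.13, SE; 4.29-fold; adjusted p 0.0127 in limma). The lowest was Chac1, a glutathione-degrading enzyme, at -0.24 ± 0.10 (adjusted p 0.312). With any 1 array left out the difference of Rel was 1.06 to 1.19 (adjusted p 0.0960 to 0.112), that of Tet3 0.82 to 0.90 (0.135 to 0.168) and that of Smad7 0.89 to 1.04 (0.0966 to 0.156). That of Atf3 was 1.93 without sham 1 and 2.08 to 2.27 without sham 2, ECS 1 or ECS 2, and it passed without sham 1 alone. Rel, Tet3 and Smad7 thus fell outside the threshold at nearly the same size of difference, in fits of 3 arrays. Smad7 was also outside it after median centring (1.04; 0.0551).

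For Gadd45gip1 the 49 measured Mrpl genes, which encode other proteins of the large mitochondrial ribosome subunit, were read alongside. None was called. Their median difference was -0.08 against -0.04 over all genes, and 0.00 against 0.04 after median centring. Of the 49 differences, 33 were negative. Both ECS arrays lay below both sham arrays in 21 and above in 6, against 30.7% and 18.7% of all genes by the same rule. The extremes were Mrpl22 at 0.38 ± 0.14 (SE; adjusted p 0.260 in limma) and Mrpl57 at -0.55 ± 0.13 (adjusted p 0.153).

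**Figure D4:**
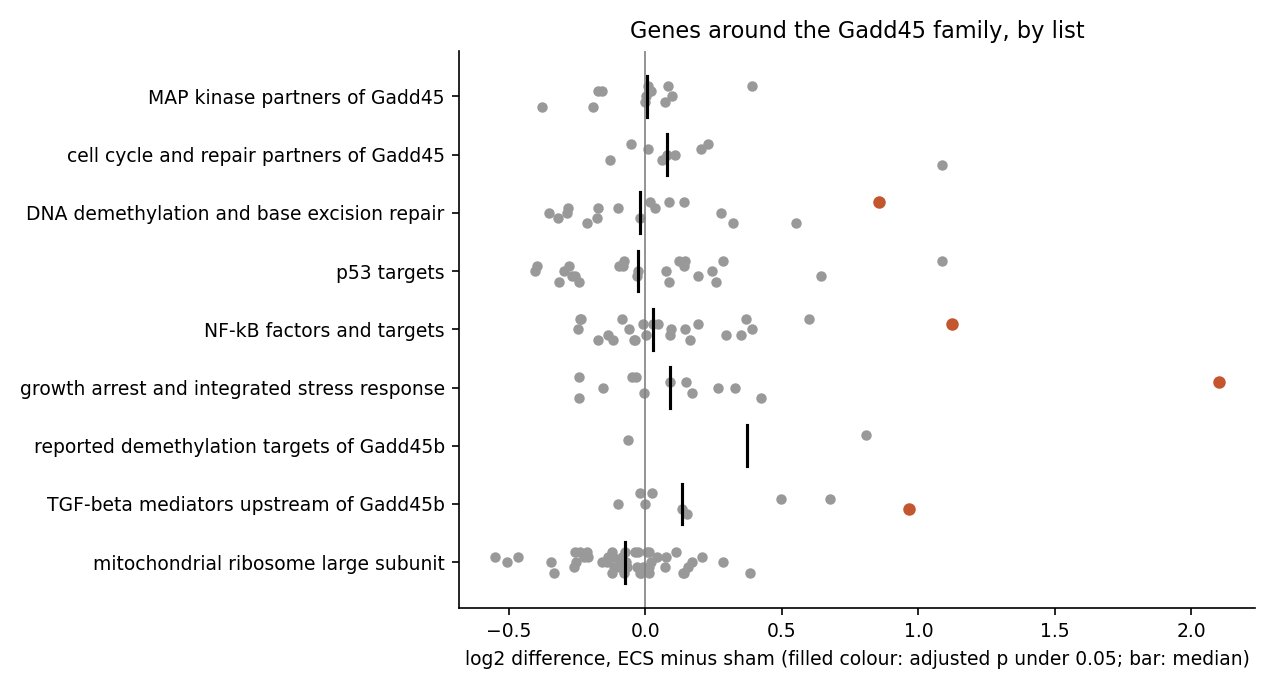
Log2 difference, ECS minus sham, of every measured gene in the 9 lists, with 1 point per gene, coloured where the adjusted p was under 0.05, and a bar at each list's median. The medians lie between -0.08 and 0.37, the latter over 2 genes alone, and the called genes are Atf3 (2.10), Rel (1.12), Smad7 (0.96) and Tet3 (0.86).

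The genes most like each member were found by the Euclidean distance between their log2 values on the 4 arrays, after taking the mean of the sham arrays from each gene. For Gadd45b they were Atf3 at a distance of 0.22, Inhba (0.28), Nptx2 (0.38), Cenpa (0.43) and Klf10 (0.54). Inhba encodes the activin A subunit, Nptx2 a secreted pentraxin of excitatory synapses, Cenpa the centromeric histone and Klf10 a TGF-beta-inducible transcription factor. Their differences were 2.10, 2.29, 2.06, 1.90 and 1.81, all called higher. Of 18009 other genes, 1 lay within 0.25 of Gadd45b.

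The other members had crowded neighbourhoods. Within the same distance lay 915 genes for Gadd45g, 856 for Gadd45a and 6941 for Gadd45gip1. The nearest to Gadd45g were Hnrnpab, Zpr1, Far1, Baalc and Zc3h15, at 0.0271 to 0.0383, and none of these was called. Those nearest to Gadd45a were Borcs7, Lrrc73, Olfr112, Hnrnph2 and Hrnr, and those nearest to Gadd45gip1 were Chrnb2, Unc5cl, Col11a2, Patl2 and Tg. With 4 arrays, this likeness is little more than a shared size of difference.

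The tissue was checked against markers. Of 12 granule cell markers 11 were measured, and Prox1, the defining transcription factor of dentate granule cells, stood between 9.29 and 9.60 on all arrays. Prox1 was 1 of only 2 markers in this list with a positive difference (0.22 ± 0.09, SE, adjusted p 0.325 in limma). All the others were negative. The mean of the granule list was 9.13 and 9.24 after sham and 8.58 and 8.64 after ECS, with Tdo2 and Dsp called lower, and the median of its differences was -0.28. All 10 choroid plexus markers were highest on sham 2, where their mean was 7.46 against 6.16, 6.34 and 6.05 on sham 1, ECS 1 and ECS 2. All 8 oligodendrocyte markers were highest on ECS 1, with a mean of 9.71 against 9.32, 9.06 and 9.11 on sham 1, sham 2 and ECS 2. ECS 1 was also the highest array for Gadd45a and Gadd45g, which without it differed by 0.04 and 0.29. On the sham arrays the order was the reverse. The oligodendrocyte mean was higher on sham 1, and Gadd45a (6.62 and 6.90) and Gadd45g (7.43 and 7.58) were higher on sham 2. The 5 measured blood markers, which hold 3 distinct sets of values since both pairs of globin genes have equal values, averaged 9.41 and 9.98 after sham and 10.6 and 10.3 after ECS, with none called. Gadd45b differed by 2.23 without sham 2, the array with the high choroid plexus markers. Whether choroid plexus, blood, oligodendrocyte or granule cell RNA had a part in the family's values was not tested.

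**Figure D5:**
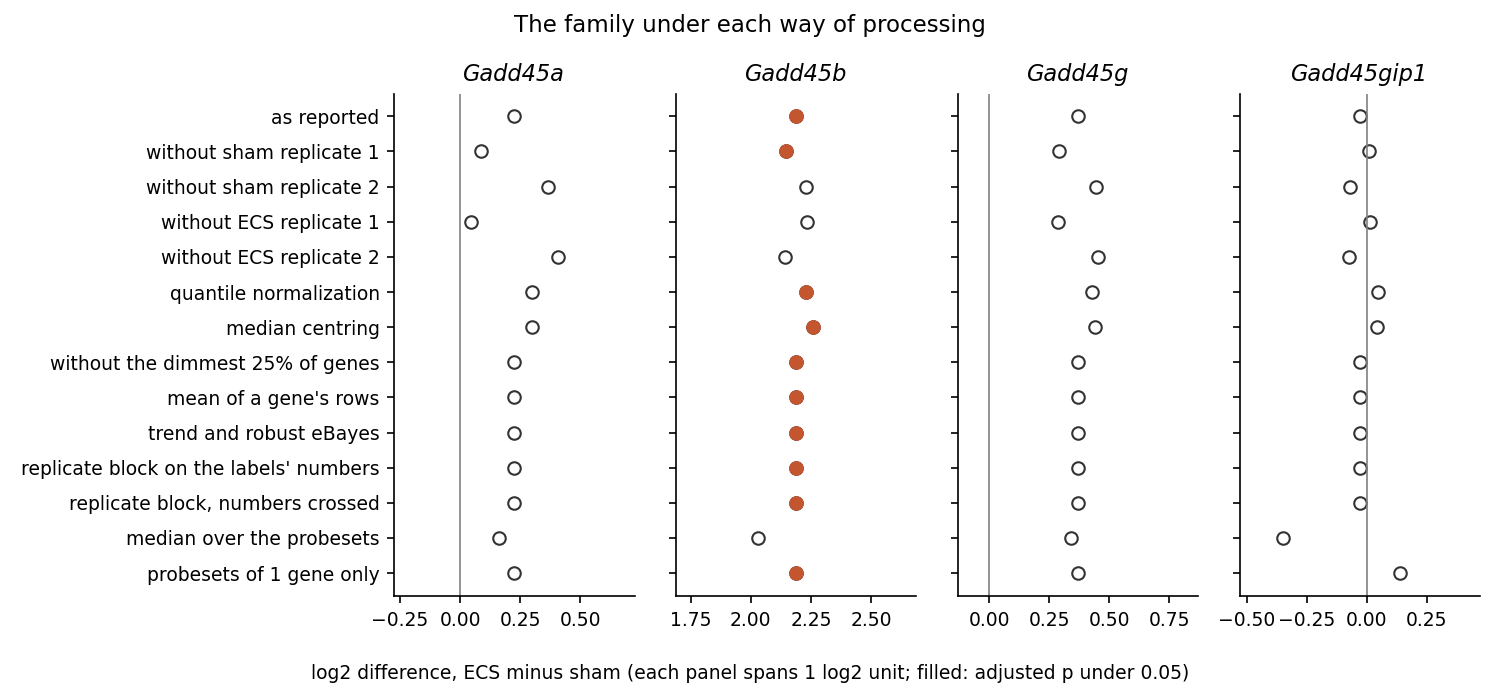
Log2 difference, ECS minus sham, of Gadd45a, Gadd45b, Gadd45g and Gadd45gip1 under each processing setting, with filled points where the adjusted p was under 0.05 and every panel spanning 1 log2 unit. Gadd45b stays between 2.03 and 2.26 and does not pass without sham 2, ECS 1 or ECS 2 or with the median over its probesets, Gadd45g runs from 0.29 to 0.45, Gadd45a from 0.04 to 0.41 and Gadd45gip1 from -0.35 to 0.14.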

How the data were processed

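The gene table deposited by the authors holds log2 expression values per RefSeq transcript. Per the submitters' processing notes it was made with RMA in the oligo package, without versions. Each column equalled, within 1e-06 in all 22485 rows with probesets, the mean of the deposited log2 probeset values of 1 labelled array, which tied the columns to the labels. Another 3621 rows without probesets, listed at 0, were left out. RefSeq identifiers were named through GRCm38.p6 (21825 of 22381 matched), and the row with the highest mean stood for a gene. ECS was compared with sham in limma 3.58.1 under R 4.3.3 (lmFit, eBayes, two-sided, no block), with Benjamini-Hochberg adjustment over all 18010 genes, or over all 229712 probesets, and a threshold of 0.05. The fit had 2 residual and 3.23 prior degrees of freedom, and the number of arrays limits its precision. Arrays of a group correlated at r = 0.993 across genes, which are not independent replicates. The gene medians were 7.25 and 7.35 (sham) and 7.26 and 7.20 (ECS).

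The named genes are the 4 members, every called gene and the highest and lowest gene of each list, the 2 reported demethylation targets, and the 5 genes nearest each member; the markers Prox1, Tdo2 and Dsp were named after their values were seen. The members and lists were chosen with earlier results of these data known. Alternatives were each array left out, other normalizations and filters, the median over probesets, blocks on replicate number, and probesets of 1 gene only. Crossed replicate numbers, and the probesets of Gadd45gip1 also listed for another gene averaged apart, were added after seeing the data. Some genes are not reported here.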

Additional observations from a re-analysis of the deposited data

How the results depend on the processing

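The main counts were 90 genes higher and 35 lower. Removing the dimmest 25% of genes gave 242 and 216, eBayes with trend and robust 365 and 352, and a threshold of 0.10 gave 219 and 180. Median centring left 18 lower, and at an unadjusted p under 0.05 turned the balance to 1921 higher and 1117 lower, from 1150 and 1888. With 1 array left out limma called 0 to 5 higher and 0 to 2 lower (866 to 1122 higher and 1075 to 1715 lower at an unadjusted p under 0.05), and the median over probesets 0 and 0 (1009 and 1464 unadjusted). Gadd45b ran from 2.14 to 2.24 with 1 array left out, and was 2.03 with the median (adjusted p 0.101), which takes different probesets on different arrays, as in the -0.35 that it gave for Gadd45gip1. Gadd45a and Gadd45g passed in none of 16 settings and kept their sign in the 7 that change the value. Gadd45gip1 ran from -0.0746 to 0.0143 with 1 array left out. It turned to 0.0449 under quantile normalization, 0.0420 under median centring and 0.14 on its own probesets. The last setting leaves out those also listed for another gene. Median centring adds the same amount to the difference of every gene, and took the median over all genes from -0.0363 to 0.0358. The cause of the other changes of sign was not tested. With 1 array left out Cdk1 ran from -0.338 to 0.0788 and Tgfbr1 from -0.263 to 0.0594; Fgf1 turned to 0.00759 under quantile normalization and 0.00886 under median centring. For Fgf1 under median centring this is the same shift as in every gene, and the cause of the other changes was not tested.

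A block on replicate number, the same for the labels' numbers and the column letters, gave 26 higher and 6 lower. Gadd45b kept its call (adjusted p 0.0339), and Rel (0.0619), Tet3 (0.114) and Smad7 (0.108) did not. Same-numbered arrays deviated from their group means at r = -0.203. This is a single correlation over genes that are not independent. It cannot show whether the numbers pair the arrays. Crossed numbers, added after seeing the data, gave 106 and 48.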
